A study of Rattus norvegicus with 138 samples.

Results

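The ribosomal protein genes of the cytosolic ribosome were examined here across 3 brainstem regions, 2 rat strains and 5 ages. Rows of the count tables were taken when their symbol was Rpl or Rps followed by a number, with a closing a, x or l and a further digit allowed, or was Rplp0, Rplp1, Rplp2 or Rpsa, and when their mean level reached 1 CPM (the gene's count scaled to the library's total) in each region. Of the 32883 rows, 90 matched by symbol and 81 passed the level, with 77 distinct symbols, since Rpl7a, Rpl21, Rpl32 and Rps27a each had a pair of rows. The level filter left out 9 rows, and the closest to it were Rpl10l inside, with a lowest regional mean of 1.18 CPM, and Rpl9 outside, with 0.826 CPM. Rps6 was listed at 0 in all libraries, and Rplp1 was not analysed here. The 81 genes held 47 of the 60S subunit, 32 of the 40S subunit and 2 of the acidic stalk, Rplp0 and Rplp2.

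Tissue came from female rats of the spontaneously hypertensive strain (SHR/NHsd) and its normotensive control, Wistar-Kyoto (WKY/NHsd), with no treatment. There were 5 WKY rats and 5 SHRs of 8 wk, 4 and 5 of 10 wk, 3 and 6 of 12 wk, 3 and 6 of 16 wk, and 3 and 6 of 24 wk. Each of the 46 rats gave 1 library of the solitary tract nucleus (NTS), 1 of the caudal ventrolateral medulla (CVLM) and 1 of the rostral ventrolateral medulla (RVLM). Libraries were made from punches of whole tissue, in which fewer cells of a type and less RNA per cell cannot be told apart, and strain stands for the whole genetic background rather than for blood pressure alone.

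Ribosomal proteins are built into the small (40S) and large (60S) subunits around ribosomal RNA, and copies that find no place in a subunit are degraded. Their mRNAs are among the most abundant of a cell, and most of them begin with a C and a run of pyrimidines, the 5′ terminal oligopyrimidine (TOP) tract, through which mTORC1 and LARP1 control their translation as a group. In neurons, these mRNAs are also found in dendrites and axons, away from the nucleolus where subunits are put together.

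Start sites are shown because the TOP tract is the feature by which these mRNAs are recognised as a group. RefSeq's table for the assembly GRCr8 holds the 250 bases before and the 50 from the annotated start on for 58 of the 77 symbols. No entry was found for the other 19, among them Rpl30, Rpl7 and Rps29. The lines below give 15 bases before the start and 15 from it, on the strand of the gene, and capitals mark an uninterrupted run of C and T that begins with a C at the annotated start. The first 7 have such a tract, and the last 3, which are also among the 81 genes and are paralogs of others, have none.
Rpl10, chrX:157205835-157205864, plus strand: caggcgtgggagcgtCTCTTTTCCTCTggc
Rpl37a, chr9:81748076-81748105, plus strand: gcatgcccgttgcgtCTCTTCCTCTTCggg
Rpl39, chrX:121195882-121195911, minus strand: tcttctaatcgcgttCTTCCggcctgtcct
Rplp0, chr12:46718376-46718405, minus strand: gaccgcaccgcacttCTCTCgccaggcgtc
Rps18, chr20:4933730-4933759, plus strand: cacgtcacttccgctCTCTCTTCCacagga
Rps27, chr2:177964592-177964621, minus strand: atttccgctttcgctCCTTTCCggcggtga
Rpl22, chr5:168117946-168117975, plus strand: gtagtgcgcccccctCCCTTTCTgcctcct
Rpl22l1, chr2:113683181-113683210, plus strand: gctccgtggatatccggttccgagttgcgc
Rpl7l1, chr9:21695703-21695732, plus strand: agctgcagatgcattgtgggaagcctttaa
Rps27l, chr8:76443643-76443672, plus strand: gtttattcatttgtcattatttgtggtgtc

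A C at the annotated start was found in 29 of the 58 members (50%) and in 24.2% of the 27457 genes in the table. A C followed by 4 further pyrimidines at the start itself was found in 19 members (32.8%), against 2.63% of all genes. When such a tract could begin up to 10 bases on either side of the annotated start, 41 members (70.7%) and 28.8% of all genes had 1. Of 3 short motifs searched on both strands of these windows, CTTCCG was found in 31 members (53.5%) and in 17.4% of all genes, GCCATCTT in 4 members (6.9%) and 3.44%, and the TATA box sequence TATAAA in 7 members (12.1%) and 14.3%. The parent and paralog pairs differed in these letters, since Rpl22 and Rps27 begin with a tract and Rpl22l1 and Rps27l do not.

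The 81 genes together took between 0.369% and 1.33% of the counts of a library. Library totals ran from 5904581 to 17889417 counts. Each library's column name ends in 1 or 2, called here the library number, whose meaning is not given in the sources used here. The number 2 marks 14 rats, which are all rats of 10 wk, 3 WKY rats of 8 wk and 1 SHR each of 12 and 24 wk. All libraries of 10 wk carry the number 2, so a term for the number is estimated from the groups that hold both numbers. Number-2 libraries held 9489481 to 17889417 counts and number-1 libraries 5904581 to 11920643. The share of ribosomal protein counts had medians of 0.543% in number-2 against 0.878% in number-1 libraries in the NTS, 0.548% against 0.809% for the CVLM, and 0.517% against 0.732% for the RVLM. In edgeR's quasi-likelihood fit with the number as a term, 64 of the 81 genes were lower in number-2 libraries in the NTS, 49 for the CVLM and 6 for the RVLM at an adjusted p under 0.05, and none was higher, where 12.5%, 11.2% and 7.7% of all genes tested were lower. Among the lower genes were Rpsa, the laminin receptor protein of the 40S subunit, at a log2 difference of −0.97 ± 0.11 (SE; adjusted p = 1.67e-07) in the NTS and −0.72 ± 0.10 (adjusted p = 4.79e-06) in the CVLM, and Rplp0, the base of the stalk that binds elongation factors, at −0.79 ± 0.11 (adjusted p = 2.33e-06) and −0.65 ± 0.09 (adjusted p = 2.06e-06). Rpl30 and Rpl7l1 did not pass this test in any region.

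**Figure D1:**
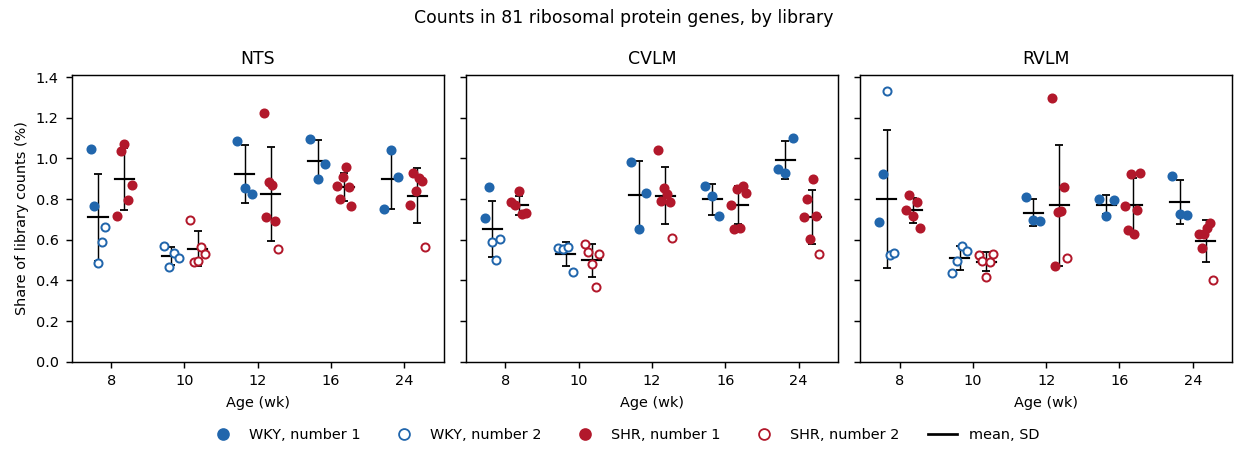
Share of each library's counts that fell in the 81 ribosomal protein genes (y axis, percent) against age (x axis, wk), in WKY rats (blue) and SHRs (red), 1 point per library, filled for library number 1 and open for number 2. Black lines and bars give the mean and SD of a group, and the 3 CVLM libraries of WKY rats at 24 wk sit above all 6 of SHRs.

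In the CVLM, ribosomal protein genes were lower in SHRs than in WKY rats at 24 wk, where 42 passed the test as lower and 1 as higher. At most 3 passed between the strains at any other age or in any other region. The RVLM at 24 wk, with none passing, still had a median log2 fold change of −0.50 and 78 of the 81 genes below 0. In the CVLM at 24 wk the 81 genes made up 0.946%, 0.931% and 1.1% of the counts in the 3 WKY rats, and between 0.530% and 0.900% in the 6 SHRs, with a median of 0.715%. These values did not overlap. Of the 81 genes, 42 were lower and 1 was higher in SHRs at an adjusted p under 0.05 (edgeR, Benjamini-Hochberg over all genes), where 4.92% of all genes tested were lower and 2.21% higher. The median log2 fold change was −0.59 over the 81 genes and 0.02 over all genes, and 80 of the 81 lay below 0. For 41 of the genes, all 6 SHR libraries lay below all 3 WKY libraries, which was so for 5.65% of all genes tested.

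The lower genes belonged to both subunits. Rpl3, which lies next to the site of peptide bond formation and had the highest CPM of the 81 in each region, was at 504, 535 and 514 CPM in WKY rats and at 362 to 469 CPM in SHRs (median 379). The groups did not overlap, and the log2 fold change was −0.46 ± 0.09 (adjusted p = 0.000504, edgeR). Rpl5, which carries 5S ribosomal RNA into the 60S subunit and binds MDM2 when free, was at 214, 210 and 205 CPM in WKY rats and at 145 to 185 CPM in SHRs, again without overlap, with a log2 fold change of −0.43 ± 0.11 (adjusted p = 0.00818). Rpl22l1 was at 72.6, 82.0 and 100.1 CPM in WKY rats and at 36.2 to 72.3 CPM in SHRs, with −0.80 ± 0.24 (adjusted p = 0.0375). Rpl10, whose protein joins the 60S subunit last and at the tRNA sites, was at 269, 250.1 and 297 CPM in WKY rats and at 171 to 258 CPM in SHRs, with −0.46 ± 0.14 (adjusted p = 0.0341). One SHR lay within the range of the WKY rats for Rpl10, and none for Rpl22l1.

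Among genes of the 40S subunit, Rps27, a zinc finger protein, was at 66.2, 64.4 and 89.2 CPM in WKY rats and at 30.1 to 64.4 CPM in SHRs, with a log2 fold change of −0.80 ± 0.24 (adjusted p = 0.0375, edgeR), and the highest SHR lay just above the lowest WKY rat. Rps12 was at 72.6, 65.7 and 81.5 CPM against 36.4 to 63.8 CPM, with −0.68 ± 0.20 (adjusted p = 0.0291). Rps24, which is mutated in some patients with Diamond-Blackfan anemia, was at 104, 107 and 137 CPM against 60.3 to 109 CPM, with −0.66 ± 0.19 (adjusted p = 0.0258). In Rps12 the groups did not overlap, and in Rps24 the highest SHR lay between WKY rats. Further genes were picked after their values were seen because their adjusted p was low or their fold large. Of these, Rps4x, an X-linked 40S protein, was at 146.1, 138.3 and 143.1 CPM in WKY rats and at 73.5 to 113 CPM in SHRs (−0.62 ± 0.12, adjusted p = 0.000608). Rps3a was at 262, 273 and 285 CPM against 132 to 227 CPM (−0.70 ± 0.15, adjusted p = 0.00157). Rpl39, a short protein that lines the tunnel through which the new chain leaves, was at 27.6, 23.5 and 31.1 CPM against 11.2 to 20.1 CPM, the largest decrease among the genes called (−0.91 ± 0.25, adjusted p = 0.0168). In none of Rps4x, Rps3a and Rpl39 did SHRs and WKY rats overlap.

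**Figure D2:**
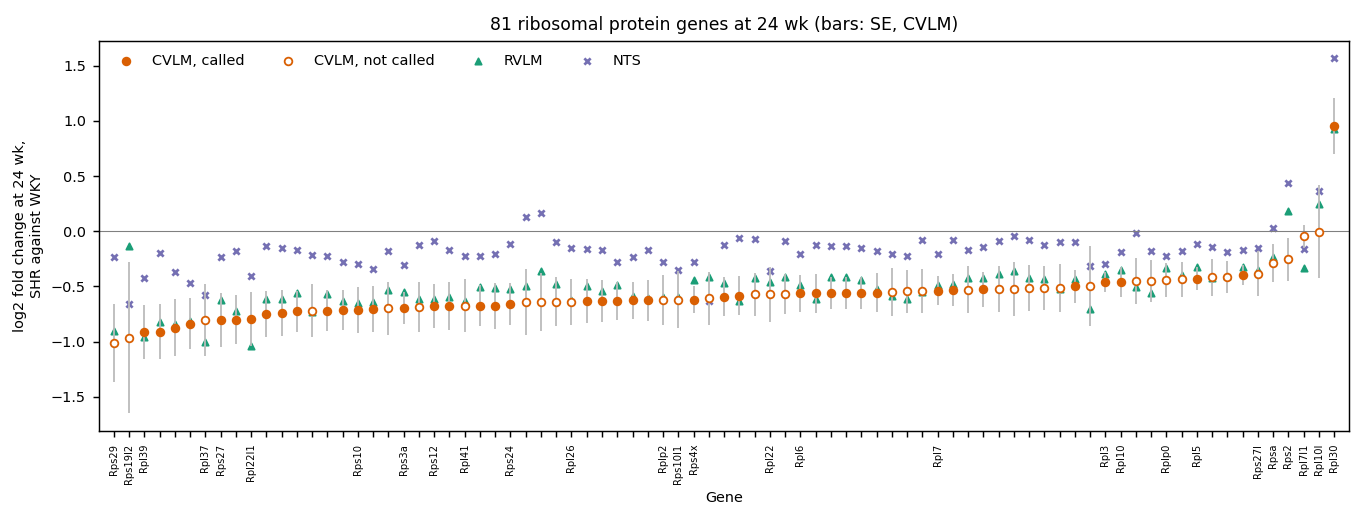
Log2 fold change of SHRs against WKY rats at 24 wk (y axis) for each of the 81 genes (x axis, ordered by the CVLM value, with names for genes described in the text), with CVLM values as circles with SE bars, filled where called, RVLM values as triangles and NTS values as crosses. All CVLM values except that of Rpl30, at 0.95, lie below 0.

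A few of the 81 genes stood apart at 24 wk in the CVLM. Rps29 had the lowest log2 fold change, −1.01, at 4.45, 4.20 and 5.14 CPM in WKY rats and 0.989 to 3.81 CPM in SHRs, and did not pass the test (adjusted p = 0.0692). Rplp2, the second stalk protein, named after its value was seen, was at −0.62 (adjusted p = 0.0871), Rplp0 at −0.44 (adjusted p = 0.0766) and Rpsa at −0.29 (adjusted p = 0.332). The paralog Rpl7l1 was at 21.1, 22.8 and 21.5 CPM in WKY rats and at 20.4 to 23.9 CPM in SHRs, a log2 fold change of −0.05, whereas its parent Rpl7, which passed the test, was at 155, 167 and 167 CPM against 98.5 to 139 CPM, a log2 fold change of −0.54 ± 0.13 (adjusted p = 0.00917). Rpl10l, a paralog known from the testis, was at 1.65, 1.35 and 1.28 CPM in WKY rats and 0.695 to 2.58 CPM in SHRs, too few counts for a firm value. Rpl22, with −0.57 (adjusted p = 0.161), and Rps27l, a paralog that p53 is known to induce, with −0.39 (adjusted p = 0.257), did not pass. The median log2 fold change of the rows with a tract within 10 bases of the start was −0.62, with 26 of 43 lower, and that of the rows without it −0.57, with 9 of 18 lower.

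The number of genes called in the CVLM at 24 wk varied with the libraries in the fit. Without number-2 libraries outside 10 wk, 19 genes were lower and 1 higher, with a median of −0.51, and with the number as a term 40 were lower. Leaving out WKY replicate 1, 2 or 3 of 24 wk gave 6, 35 and 4 lower genes with medians of −0.59, −0.66 and −0.50, and when 24 wk was fitted alone 3 were lower (median −0.54).

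The other ages in the CVLM did not show this pattern. At 8, 10, 12 and 16 wk, 3, 1, 1 and 1 of the 81 genes passed the test, all of them higher in SHRs, where 7.64%, 3.18%, 2.62% and 2.27% of all genes passed in either direction. Rpl30 was among them at each age. The medians over the 81 genes were 0.21, −0.11, −0.02 and −0.11, and without number-2 libraries outside 10 wk that of 8 wk was 0.00, with 40 of the 81 genes below 0, and that of 12 wk 0.07. At 8 wk the other genes were Rpsa, at 156, 183, 93.1, 83.6 and 105 CPM in WKY rats, of which the last 3 were number-2 libraries, and at 174 to 211 CPM in SHRs (log2 fold change 0.58 ± 0.16, adjusted p = 0.0162), and Rplp0, at 154, 186, 94.1, 87.5 and 98.7 CPM in WKY rats and 159 to 198 CPM in SHRs (0.48 ± 0.14, adjusted p = 0.0296). The low values of both were those of the number-2 libraries. Without number-2 libraries, 1 gene passed at 8 wk, Rpl30. Without WKY replicate 2 of 8 wk 13 passed, and without replicate 3, 4 or 5 there was 1. At 10 wk none passed without WKY replicate 1 or 2.

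In the NTS, Rpl30 passed the test between the strains at each age, and few other genes passed. From the youngest to the oldest age, 2, 1, 1, 1 and 1 genes passed the test, all higher in SHRs, where 5.79%, 4.44%, 3.1%, 1.73% and 2.46% of all genes passed in either direction. The second gene at 8 wk was Rpsa, at 233, 192, 81.7, 103 and 97.6 CPM in WKY rats, the last 3 again of library number 2, and at 179 to 248 CPM in SHRs (log2 fold change 0.67 ± 0.20, adjusted p = 0.0372). It did not pass without these libraries. At 8 wk 48 genes passed without WKY replicate 1, and 1 passed without WKY replicate 3, 4 or 5 or SHR replicate 1, 2 or 3. At 12 and 16 wk none passed without WKY replicate 2 of that age, and at 24 wk 2 passed without WKY replicate 2. Over the 81 genes, the median log2 fold change was 0.39, 0.10, −0.13, −0.28 and −0.17 from the youngest to the oldest age. Without number-2 libraries outside 10 wk these medians were 0.06, 0.10, −0.04, −0.28 and −0.09. At 8 wk 27 genes were higher at an unadjusted p under 0.05 (edgeR) and 1 lay below 0. Without number-2 libraries these numbers were 1 and 23. At 16 wk 78 lay below 0, with 1 lower at that unadjusted threshold and 46 when 16 wk was fitted alone. There all SHR libraries lay below all WKY libraries for 5 genes (2.94% of all genes) and above for 1 (4.35%). At 24 wk the share of counts in the 81 genes was 0.749%, 0.910% and 1.04% in WKY rats and 0.564% to 0.929% in SHRs (median 0.864%), which overlapped. The gene with the lowest mean over ages was Rpl37, at −0.20 ± 0.16 (adjusted p = 0.566).

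In the RVLM, no gene of the 81 passed the test at any single age in edgeR, where 9.78%, 2.3%, 1.7%, 1.65% and 2.24% of all genes passed in either direction from 8 to 24 wk. At an unadjusted p under 0.05, 8, 2, 1, 1 and 19 genes were found at these ages, and DESeq2 called 1 at each age. Without WKY replicate 1 of 8 wk 2 passed at that age, and without WKY replicate 3 of 8 wk 2 passed at 24 wk. At 24 wk, 18 of the 19 were lower in SHRs, the median log2 fold change was −0.50, and 78 of the 81 genes lay below 0. Without number-2 libraries outside 10 wk, 1 gene passed as lower at 24 wk and 25 were lower at an unadjusted p under 0.05, with a median of −0.43. The share of counts was 0.912%, 0.726% and 0.722% in WKY rats and 0.403% to 0.683% in SHRs (median 0.628%), without overlap, and for 29 genes all SHR libraries lay below all WKY libraries, as for 4.52% of all genes. Rpl22l1 had the lowest fold, with 122, 61.4 and 70.5 CPM in WKY rats and 25.7 to 58.0 CPM in SHRs, which did not overlap (log2 fold change −1.04 ± 0.38, adjusted p = 0.181). Rpl3 was at 376, 447 and 414 CPM against 297 to 356 CPM (−0.38 ± 0.13, adjusted p = 0.111). In Rpl39, also without overlap, WKY rats were at 35.05, 20.6 and 20.2 CPM and SHRs at 6.25 to 18.5 CPM (−0.96 ± 0.39, adjusted p = 0.241). The summed CPM of 3 red blood cell genes was 389.7 to 567.98 in WKY rats and 209.8 to 309.9 in SHRs in these RVLM libraries, also without overlap. None of the 3 passed and 2 were lower at an unadjusted p under 0.05, while 1 of 6 oligodendrocyte and 1 of 2 choroid plexus markers were lower at the adjusted threshold. Over all ages in the RVLM, the red blood cell sum had medians of 449 CPM in WKY rats and 286 CPM in SHRs. The part of these markers in the ribosomal protein values was not tested.

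**Figure D3:**
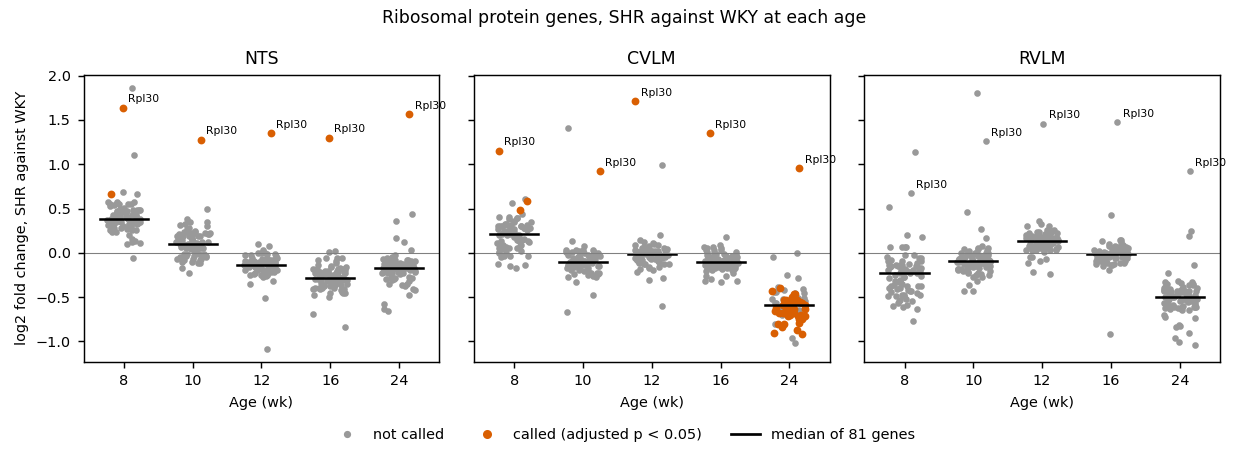
Log2 fold change of SHRs against WKY rats (y axis) at each age (x axis, wk) in the 3 regions, with 1 point per ribosomal protein gene, orange where called at an adjusted p under 0.05 and grey where not, and a black line at the median of the 81 genes. Rpl30 is labelled and lies above 0 at each age in each region, a point above it is Rps19l2 or Rpl10l, which did not pass, and the orange points below 0 are those of the CVLM at 24 wk.

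Whether the strain difference itself differed between regions was tested in 1 fit over the libraries of all regions with the rat as a block. For the mean over ages, none of the 81 genes passed between the NTS and RVLM, the NTS and CVLM or the CVLM and RVLM (2, 0 and 1 at an unadjusted p under 0.05), where 1.82%, 0.449% and 0.32% of all genes passed. At 24 wk, the NTS against CVLM contrast had no gene past the threshold and 2 at an unadjusted p under 0.05, with 0.0427% of all genes past the threshold and a median of 0.39 over the 81 genes. Without number-2 libraries outside 10 wk it again had none past the threshold, but 26 at an unadjusted p under 0.05 and a median of 0.46. The CVLM against RVLM contrast at 24 wk had none past the threshold and 1 at an unadjusted p under 0.05. Its median was −0.04 over the 81 genes, and 0 of the 14043 genes tested passed. At 8 wk, the NTS against RVLM contrast had none past the threshold and 54 at an unadjusted p under 0.05, all with a higher SHR to WKY ratio in the NTS, a median of 0.59, and 0.983% of all genes past it. Without number-2 libraries, a setting added for this contrast after the data were seen, it had none past the threshold and none at an unadjusted p under 0.05, with a median of 0.18. These results came from edgeR, and limma voom with the rat as a random effect, run for the mean and for 24 wk, also called none. The decrease at 24 wk in the CVLM is thus not shown to differ from the values in the NTS or RVLM.

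Rpl30, a small protein of the 60S subunit, was higher in SHRs than in WKY rats in all 3 regions, opposite in direction to most of the group at 24 wk. In the NTS, it was at 17.5, 9.10, 9.75, 14.03 and 20.8 CPM in the WKY rats of 8 wk and at 32.1, 46.6, 60.03, 38.5 and 40.4 CPM in the SHRs. Over all ages, the 18 WKY rats ran from 5.49 to 20.8 CPM (median 13.4) and the 28 SHRs from 25.1 to 64.3 CPM (median 38.0), so that the strains did not overlap in the NTS. In the CVLM, WKY rats ran from 8.29 to 22.7 CPM (median 12.1) and SHRs from 12.0 to 51.8 CPM (median 30.9), and 1 SHR, of 10 wk, lay within the range of WKY rats. In the RVLM, WKY rats ran from 7.02 to 42.2 CPM (median 10.6) and SHRs from 14.8 to 62.9 CPM (median 28.2). There the overlap came from 1 WKY library, replicate 3 of 8 wk, at 42.2 CPM, where the other 17 were at 14.6 CPM or lower.

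The mean log2 fold change of Rpl30 over the 5 ages was 1.42 ± 0.13 in the NTS (adjusted p = 4.18e-12), 1.22 ± 0.11 in the CVLM (adjusted p = 6.21e-12) and 1.16 ± 0.18 in the RVLM (adjusted p = 3.14e-06). It was the only one of the 81 genes that passed for this mean in the NTS and RVLM, where 11.2% and 10.8% of all genes passed in either direction. In the CVLM, where 12.3% passed, Rpl3 (−0.15 ± 0.04, adjusted p = 0.00676) and Rpl5 (−0.14 ± 0.05, adjusted p = 0.0418) passed as lower beside it, and 9 genes passed without WKY replicate 2 of 12 wk and 5 without SHR replicate 1 of 10 wk. By age, the log2 fold change of Rpl30 in the NTS was 1.64, 1.27, 1.35, 1.3 and 1.56 from 8 to 24 wk (highest adjusted p = 0.00549), and in the CVLM 1.15, 0.92, 1.71, 1.35 and 0.95 (highest adjusted p = 0.0152). In the RVLM it was 0.67, 1.26, 1.46, 1.47 and 0.92, and no age passed (adjusted p between 0.061 and 0.288). Without WKY replicate 3 of 8 wk, Rpl30 in the RVLM was at 1.51, 1.26, 1.46, 1.47 and 0.91 and passed at 8, 10, 12 and 16 wk (adjusted p = 0.000287, 0.00299, 0.00194 and 0.00202) but not at 24 wk (adjusted p = 0.104).

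**Figure D4:**
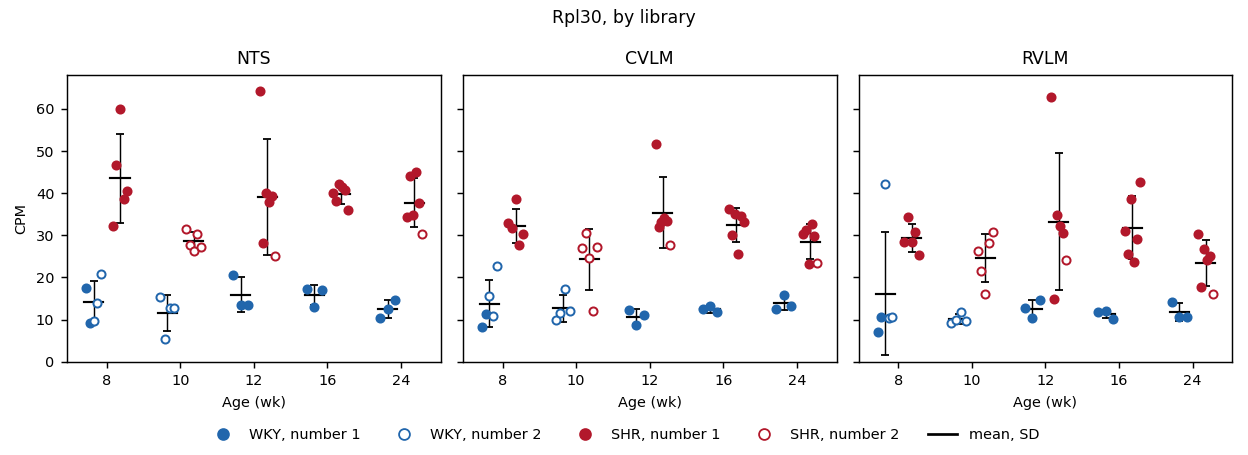
Rpl30 in CPM (y axis, linear from 0) against age (x axis, wk) for each library, with WKY rats in blue and SHRs in red, filled for library number 1 and open for number 2, and the mean and SD of each group in black. SHRs lie above WKY rats in the NTS without overlap, and 1 open blue point at 42.2 CPM stands apart in the RVLM at 8 wk.

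As a percent of the summed CPM of the 81 genes, a measure added after the data were seen, Rpl30 was at 0.118 to 0.315 in WKY rats and 0.395 to 0.565 in SHRs in the NTS, at 0.117 to 0.377 and 0.326 to 0.565 in the CVLM, and at 0.102 to 0.317 and 0.314 to 0.580 in the RVLM. The WKY library that stood apart in the RVLM also had the largest summed share of all, 1.33%, and carried the number 2, whereas the other number-2 WKY libraries of that region lay between 0.436% and 0.570%. The 12 entries that RefSeq names as Rpl30 pseudogenes, of 908 ribosomal protein pseudogenes with at least 1 for 71 of the 77 symbols, mean that reads may be split between near-identical copies, and whether the strains differ in such copies was not tested. The 2 rows of Rpl7a held equal counts in every library.

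Between 8 and 24 wk, ribosomal protein genes rose in WKY rats in the CVLM. There, 52 of the 81 genes were higher at 24 wk and none was lower, where 9.14% of all genes tested were higher, with a median log2 fold change of 0.66. The largest change among the called genes was that of Rps10l1, a copy of Rps10, from 24.7, 27.7, 10.2, 11.7 and 11.9 CPM at 8 wk to 31.2, 30.3 and 41.3 CPM at 24 wk (1.02 ± 0.27, adjusted p = 0.0110). The smallest was that of Rpl5, from 173, 176, 178, 152 and 163 CPM to 214, 210 and 205 CPM (0.32 ± 0.11, adjusted p = 0.0416). In both genes the ages did not overlap, and the last 3 values at 8 wk were of library number 2. Neither Rpl30, at 0.00, nor Rpl7l1, at −0.06, passed. With the library number as a term 3 genes were called, and without number-2 libraries none was, with 22 at an unadjusted p under 0.05 and a median of 0.42. Over all genes, 1226 of 13408 were higher at 24 wk, and 19 without number-2 libraries. Without WKY replicate 1 or 3 of 24 wk 25 and 10 were called, and without WKY replicate 4 of 8 wk 23. This comparison and that of the strains at 24 wk share the same 3 WKY libraries.

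Cell markers also moved between these ages in the CVLM of WKY rats. The summed CPM of 6 oligodendrocyte markers was 53185 to 69793 at 8 wk and 37827 to 50098 at 24 wk, without overlap, and 5 of the 6 were lower. Red blood cell genes summed to 346 to 670 CPM (median 509) at 8 wk and 575 to 1073 CPM (median 836) at 24 wk, with none of 3 past the threshold and 2 higher at an unadjusted p under 0.05. Of 6 microglia markers, 3 were higher, and of 4 endothelial markers 1 was lower. Over all genes tested, 9.14% were higher and 4.51% lower in this comparison. Without number-2 libraries, 1 oligodendrocyte marker was lower, 1 microglia marker was higher and no endothelial marker passed. Of all genes, 0.142% were then higher and 0.239% lower. At an unadjusted p under 0.05 (edgeR), all 6 oligodendrocyte markers were still lower in that setting, and 0 red blood cell genes were higher. The part of these markers in the ribosomal protein values was not tested.

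No gene of the 81 passed between 8 and 24 wk in edgeR in the other region and strain pairs, where 0.649% (CVLM, SHRs), 0.232% (NTS, SHRs), 0.464% (NTS, WKY rats), 0.358% (RVLM, SHRs) and 0.179% (RVLM, WKY rats) of all genes passed. At an unadjusted p under 0.05 the numbers were 0, 3, 8, 16 and 1 in this order, and DESeq2 called 2 in WKY rats in the NTS and none in the others. Without WKY replicate 1 of 8 wk, 22 genes passed in WKY rats in the NTS. In WKY rats in the NTS the median was 0.29, and without number-2 libraries it was −0.05, with none at an unadjusted p under 0.05. In SHRs, the medians were below 0 in the 3 regions, at −0.16 in the CVLM, −0.27 in the NTS and −0.43 in the RVLM, where all 81 genes lay below 0. Without number-2 libraries the medians of SHRs were −0.09, −0.17 and −0.32 in the same order, with 0, 0 and 11 genes at an unadjusted p under 0.05, and 80 genes lay below 0 in the RVLM.

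Differences between regions were small. With the rat as a block, 13 genes were higher and 13 lower in the NTS than in the RVLM, 3 higher and 11 lower in the NTS than in the CVLM, and 10 higher and 2 lower in the CVLM than in the RVLM, where 72.7%, 65.9% and 54% of all genes passed in either direction. The largest difference among the genes called was 0.32 on the log2 scale, in Rps27, and the 3 contrasts share their libraries. These folds are on TMM-scaled counts and need not equal ratios of CPM. Rplp0 was lower in the NTS (88.5 to 219 CPM, median 180.1) than in the RVLM (97.2 to 246 CPM, median 193), with a log2 fold change of −0.31 ± 0.04 (adjusted p = 1.74e-12), and lower in the CVLM than in the RVLM (−0.22 ± 0.04, adjusted p = 1.52e-07). NTS libraries were higher in Rps27, against the RVLM (0.32 ± 0.08, adjusted p = 0.000309) and the CVLM (0.23 ± 0.08, adjusted p = 0.01), and in its paralog Rps27l against the CVLM (0.25 ± 0.06, adjusted p = 0.000174). In each of these genes the libraries of the regions overlapped widely.

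Lower in the NTS after TMM scaling were Rpl22l1 against the RVLM (−0.29 ± 0.08, adjusted p = 0.000794), Rpl6 against the CVLM (−0.21 ± 0.05, adjusted p = 8.6e-05) and Rps10 against the CVLM (−0.18 ± 0.07, adjusted p = 0.0162). In mean CPM, without this scaling, the same regions lay closer. Rpl22l1 was at 59.5 against 64.4, Rpl6 at 103 against 107 and Rps10 at 29.9 against 30.3. Rps27 lay further apart in mean CPM, at 63.1 in the NTS and 45.0 in the RVLM. Rpl26, which is known to bind the p53 mRNA, was higher in the CVLM than in the RVLM (0.23 ± 0.07, adjusted p = 0.00348), as was 1 of the 2 rows of Rpl32 (0.19 ± 0.08, adjusted p = 0.0486), and Rpl7l1 was lower (−0.08 ± 0.03, adjusted p = 0.0101).

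Within groups of strain and age, the ribosomal protein genes rose and fell together from library to library. After the group means were taken out, the median Pearson r between pairs of the 81 genes was 0.852 in the NTS, 0.813 for the CVLM and 0.880 for the RVLM over 46 libraries, and that over all pairs of genes was 0.0245, 0.0106 and 0.0292. These are descriptions over libraries that share depth, library number and tissue makeup. Rpl41 had the highest median r with the other genes in the CVLM and RVLM, 0.900 and 0.937. Rpl7l1 had the lowest, at −0.017, −0.264 and −0.082, followed by Rpl10l, with 0.315, 0.203 and 0.361, and Rps2, with 0.418, 0.385 and 0.414. Rpl7l1 ran only from 20.6 to 27.9 CPM over the NTS libraries, whereas Rpl22l1 ran from 25.5 to 121 CPM.

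**Figure D5:**
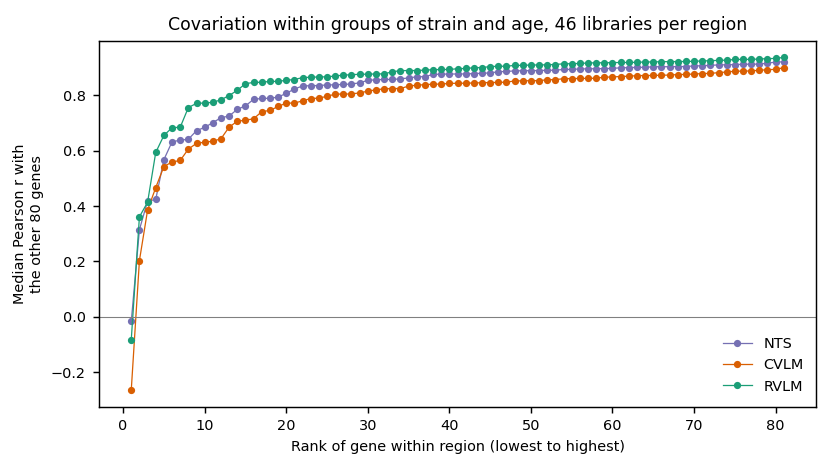
Median Pearson r of each ribosomal protein gene with the other 80 within groups of strain and age (y axis), ordered from lowest to highest in each region (x axis, rank), over 46 libraries per region. Most genes lie near the median r of their region, and Rpl7l1 is the point at or below 0 in each region.

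Other gene groups were counted beside the ribosomal protein genes in the CVLM at 24 wk, where 4.92% of all genes tested were lower and 2.21% higher in SHRs. Of 73 mitochondrial ribosomal protein genes tested, 16 were lower and 1 was higher in SHRs (median log2 fold change −0.41), and of 81 nuclear genes of oxidative phosphorylation 21 were lower and none higher (median −0.46). Proteasome subunits had 9 lower and 1 higher of 36 (median −0.27), and other mRNAs known to carry a TOP tract, such as those of elongation factors, 7 lower of 18 (median −0.34). Of 29 initiation factor genes 3 were lower (median −0.10), of 10 elongation factor genes 1 was lower and 1 higher (median −0.22), of 54 genes for ribosome biogenesis and ribosomal RNA synthesis 5 were lower (median −0.09), and of 21 genes of mTORC1 and TOP mRNA control 1 was lower (median 0.10). None of 10 genes of the nucleolar stress response passed (median −0.20). The 2 tested genes that encode a ribosomal protein fused to another had a median of −0.55, with 1 lower. In WKY rats between 8 and 24 wk in the CVLM, 31 of the mitochondrial ribosomal protein genes, 30 of oxidative phosphorylation, 14 of the proteasome and 12 of the other TOP mRNAs were higher and none of these lists had a lower gene, where 9.14% of all genes were higher. Without number-2 libraries none of these 4 lists had a gene past the threshold in that comparison, with 24, 24, 14 and 6 genes higher at an unadjusted p under 0.05.

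Markers of other cells were read in the same libraries. In the CVLM at 24 wk, the summed CPM of 3 red blood cell genes was 575 to 1073 in WKY rats and 234 to 579 in SHRs, with 1 SHR inside the range of WKY rats, and 2 of the 3 were lower in SHRs (edgeR, adjusted p under 0.05). This sum was not lower in SHRs at 24 wk only. Over all ages its medians in WKY rats and SHRs were 529 and 280 CPM in the CVLM, and 510 and 336 CPM in the NTS. Of 6 oligodendrocyte and 6 microglia markers 1 each was lower at 24 wk, and of 3 choroid plexus markers tested 1 was higher. None of 6 neuron, 5 astrocyte, 4 endothelial and 4 leptomeningeal markers passed. The summed CPM of 4 vagal motor and cholinergic markers was 59.7 to 103.5 in WKY rats and 125.2 to 198.7 in SHRs. These 24 wk sums did not overlap. Without number-2 libraries, 3 of these 4 were higher in SHRs at an unadjusted p under 0.05 (edgeR) and 0 passed. Their median log2 fold change was then 0.93. Sums of 5 C1 and noradrenergic neuron markers overlapped between the strains. The share of mitochondrially encoded counts was 5.92% to 6.29% in WKY rats and 5.84% to 7.16% in SHRs. The part of these in the ribosomal protein values was not tested. Markers of the NTS summed to 0.8 to 10.7 CPM in the NTS and to 1.1 CPM or less in the CVLM. In the RVLM they reached 1.70 CPM in WKY rats and 1.47 CPM in SHRs, within the range of the lowest NTS libraries. The 26 strain marker genes, chosen in the other 2 regions, placed every library with its strain label.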

How the data were processed

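RNA of brainstem punches was sequenced by the authors, aligned to the rat genome rn6 with STAR and quantified per gene with RSEM, per the study's methods and labels. The deposited values are expected counts for 32883 genes in 46 libraries of each region, and were rounded to whole numbers here. Whether the batch adjustment the methods mention was applied to these tables is not given in the sources used here, nor is the use of strand in counting. No column of per-sample values was left unused (0 columns).

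Genes whose largest rlog value in a region reached 3.5 were kept (13793 in the NTS, 13408 for the CVLM and 13411 for the RVLM), and all 81 members passed in each. CPM was computed over all counts of a library. Strains and ages were compared with edgeR 4.0.16 (TMM, quasi-likelihood, robust) in R 4.3.3, with 1 fit per region over its 10 groups of strain and age, and regions with 1 fit over the libraries of all regions with the rat as a block. Genes were called at a Benjamini-Hochberg adjusted p under 0.05 over all genes tested. DESeq2 1.42.0, limma 3.58.1, RLE size factors, no filter, the library number as a term, each age alone, a replicate block, a stricter call and leaving out rats or libraries were the alternatives. The library-number test, the strain-by-region contrasts at single ages before 24 wk without number-2 libraries, and the percent of member counts in Rpl30 were added after the data were seen. On simulated data for 24 wk, 3-fold changes were recovered in 100% of genes in each region. For 1.5-fold changes the share was 13.4% in the NTS, 8.96% for the CVLM and 11.9% for the RVLM. Whether these shares hold for the ribosomal protein genes was not tested.

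Replicates are separate rats. Same-numbered rats of the strains were treated as unpaired, since the labels give no pairing. The correlation of their deviations from the group mean ran from −0.33 to 0.55, which does not settle whether they were handled together. In the CVLM, 2 libraries carry conflicting ages and were placed at 8 wk by title. Named genes were the paralogs with their parents, genes called at the most ages, those with the largest and smallest changes between regions, ages or strains, those with the highest and lowest CPM, those passing an adjusted p of 0.01 with a 2-fold change, up to 3 genes per other list, and the non-members most like the members. The members and lists were chosen with earlier results of these data known. Results for some members are not reported here by name.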

Additional observations from a re-analysis of the deposited data

Results flagged for a closer look

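In groups of 4 to 10 libraries, the highest or lowest library was set against the range of its group by Dixon's test at the 95% level, which chance passes in about 1 of 20 groups, and 16 of 252 groups passed. In the RVLM, WKY replicate 3 of 8 wk stood high for Rpl30 (42.2 CPM, nearest 10.6) and for Rpl39 (53.2 CPM, nearest 26.8). SHR replicate 1 of 12 wk stood high in the NTS for Rpl39 (51.2 CPM, nearest 27.8), in the CVLM for Rpl30 (51.8 CPM, nearest 34.2) and Rpl39 (36.9 CPM, nearest 22.7), and in the RVLM for Rpl22l1 (179.9 CPM, nearest 74.0), Rps27l (45.3 CPM, nearest 22.0) and Rpl39 (55.6 CPM, nearest 23.4).

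Number-2 libraries stood low in SHR replicate 6 of 24 wk in the NTS for Rpsa (122 CPM, nearest 206) and Rplp0 (99.6 CPM, nearest 178), in SHR replicate 6 of 12 wk in the CVLM for Rplp0 (126 CPM, nearest 176), and in WKY replicate 4 of 10 wk in the CVLM for Rps27l (12.0 CPM, nearest 20.3) and for the summed share of the 81 genes (0.443%, nearest 0.554%). In the NTS, Rpl22l1 stood high in WKY replicate 1 of 8 wk (94.5 CPM, nearest 53.3), and Rpl10l was listed at 0 in SHR replicate 5 of 10 wk (nearest 1.04 CPM). Rps29 stood high in SHR replicate 3 of 16 wk in the RVLM (4.83 CPM, nearest 2.71).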

How the results depend on the processing

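No result changed its direction past a threshold under an alternative. The counts of ribosomal protein genes that moved are given by setting, and the cause was not tested beyond each setting's construction. CVLM, SHRs against WKY rats at 24 wk, 43 genes: each age alone 4, no filter 23, without number-2 libraries 20, stricter call 0. CVLM, WKY rats at 24 against 8 wk, 52 genes: number as a term 3, no filter 34, without number-2 libraries 0, without the libraries with conflicting ages 33. At 8 wk in the CVLM (3 genes) the count was 7 with the replicate block and 1 with each age alone, the number term, no number-2 libraries, no conflicting ages and the stricter call. At 8 wk in the NTS (2 genes) it was 5 with the replicate block and 1 with each age alone, the number term, no filter, no number-2 libraries and the stricter call. At 10 wk in the CVLM (1 gene) it was 0 with each age alone, the replicate block and the stricter call, at 12 wk in the NTS 0 with each age alone, and at 16 wk in the NTS 0 with the replicate block. For the mean over ages, the number term gave 10 in the CVLM (main 3) and 2 in the NTS (main 1), no number-2 libraries gave 2 in the NTS and RVLM, and DESeq2 2 in the RVLM (main 1). In the RVLM by age (main 0), DESeq2 and leaving out number-2 libraries gave 1 at each age, and each age alone 1 at 10 and 16 wk. In WKY rats in the NTS, DESeq2 gave 2 between the ages. Between the CVLM and RVLM (12), no block gave 7 and no number-2 libraries 19, and between the NTS and CVLM (14) no block gave 5. The replicate block takes same-numbered rats of the strains as pairs, though the labels give no pairing. With it, Rpl30 in the CVLM was at 0.83 (edgeR, adjusted p = 0.0795) at 10 wk and 0.93 (adjusted p = 0.0632) at 24 wk, and 39 genes were lower at 24 wk.

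Leaving out 1 rat at a time gave 4 to 50 genes in the CVLM at 24 wk, 10 to 68 between ages in WKY rats (CVLM) and 0 to 22 (NTS), 1 to 48 at 8 wk in the NTS, 1 to 13 for the CVLM, 0 to 2 for the RVLM, 0 to 1 at 10 wk in the CVLM and RVLM, 0 to 1 at 12 and 16 wk in the NTS and RVLM, 1 to 2 at 24 wk (NTS) and 0 to 2 (RVLM), and for the mean 2 to 9 (CVLM) and 1 to 2 (NTS and RVLM). Leaving out rats from the fit over all regions was not run. There were only 3 WKY rats at 12, 16 and 24 wk, and in the simulated data for 24 wk 1.5-fold differences were mostly not recovered. Some ribosomal protein genes with smaller differences were still called in the CVLM at 24 wk.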

Other observations

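Among other genes of translation, named when called with 1 sign at 3 or more ages, Mrpl43, of the large subunit of the mitochondrial ribosome, had mean log2 fold changes of SHRs against WKY rats of 1.83 in the NTS, 1.89 for the CVLM and 1.96 for the RVLM. Mrpl4 was at −0.58, −0.66 and −0.73 in the same order, and Mrpl48 at −0.52 in the NTS and −0.59 in the CVLM. In the RVLM the mean of Mrpl48 was −0.61, and it passed there at 8 and 24 wk only. Eif3c, a subunit of the initiation factor that loads the 40S subunit, was lower at all 5 ages in each region, with means of −0.93, −0.86 and −0.95.

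Genes next to Rpl30 were read after its values were seen. Rida, which removes reactive imines, was lower in SHRs over the ages, at −0.45 in the NTS (adjusted p = 0.000129), −0.27 for the CVLM (adjusted p = 0.00167) and −0.27 for the RVLM (adjusted p = 0.0269), whereas Matn2, Laptm4b, Mtdh, Pop1, Nipal2 and Stk3 did not pass in any region.

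The non-members whose levels followed the mean of the 81 genes most closely over the 46 libraries of a region were Ppial4d (r = 0.990), Cox8a (0.983) and LOC100360522 (0.981) in the NTS, Ppial4d (0.981), Ndufb11 (0.980) and Pomp (0.976) in the CVLM, and Cox6a1 (0.987), LOC100911847 (0.983) and LOC687780 (0.981) in the RVLM. These libraries share library number and depth with the measure, so the values are descriptions. Choroid plexus markers summed to 4796 CPM in a WKY library of 12 wk (NTS, replicate 2), to 1796 CPM in a WKY library of 8 wk (NTS, group median 8.2 CPM) and to 203 CPM in a WKY library of the CVLM.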
